A study of Rattus norvegicus with 16 samples.

Results

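The genes described are those for the proteins of the cytosolic ribosome in primary rat aortic smooth muscle cells. They were chosen by name and level: protein-coding genes named Rpl or Rps with a number, and Rpsa, Rplp0, Rplp1, Rplp2 and Fau, without the Rps6k kinases, with a mean of at least 1 FPKM over the 6 input libraries. FPKM counts fragments relative to gene length and to a divisor set for each library. The choice gave 84 Ensembl genes with 79 symbols, out of 32883 genes in the expression table and 13450 at that level. Of these, 44 carried the name of a large subunit protein and 29 that of a small subunit protein. The other 11 were paralogues, copies with their own names and Rps19bp1, a binding partner of RPS19 and regulator of SIRT1 that is not a ribosomal protein. Another 12 genes matched by name and fell below the level.

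The knockdown cells (Adsh, labelled NAT10 knockdown) were kept for 48 h with an adenovirus that encodes a hairpin against Nat10, in full medium with 20% serum. The control cells (Adcon) were labelled wild type and had carried a control adenovirus in the same medium, so all input and ac4C libraries came from virus-treated cells. Each group had 3 input RNA libraries and 3 libraries of RNA fragments of 100 to 200 nt bound by an antibody against N4-acetylcytidine (ac4C). A further 3 libraries held RNA bound to the NAT10 protein (NAT10 RIP) in wild type cells with no virus. The total RNA library made beside it was not analysed here. The labels give no strain, age or number of rats, and call the 3 libraries of a group biological repeats without naming separate animals, so p-values measure only the spread between these samples.

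Each cytosolic ribosome has a small subunit, which reads the message, and a large subunit, which joins the amino acids, and nearly every one of their proteins is needed in 1 copy per ribosome. Their messages are short and among the most abundant of a growing cell, and many begin with a C and an unbroken stretch of pyrimidines, the terminal oligopyrimidine (TOP) motif, through which mTOR signalling and LARP1 control their translation. NAT10 is the acetyltransferase that places ac4C on 18S ribosomal RNA and tRNA, and ac4C on messages has been linked to their stability and translation.

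The sequence around the annotated start of transcription was taken from RefSeq promoters of rat assembly GRCr8, because the TOP motif lies there. A promoter was matched by symbol for 56 ribosomal protein genes. Of these, 50 lay on the same chromosome as the gene's own ac4C peaks, 2 lay on another (Rpl36a and Rps18) and 4 genes had no peak. The 12 windows below hold 15 bases before the start and 15 from the start on, and belong to genes that the results turn on. Capitals mark the longest run of C and T within 20 bases of the start where it had at least 8 bases, as far as it lies in the window. They do not mark the TOP motif as such, and the runs of Rpl13a and Rpl5 end before the annotated start. Among the 12, only Rpl35, Rplp0 and Rps3a had a C and then 4 pyrimidines at the annotated first base.
Rpl35: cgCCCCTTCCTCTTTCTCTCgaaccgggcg
Rpl4: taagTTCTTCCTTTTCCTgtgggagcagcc
Rpl13a: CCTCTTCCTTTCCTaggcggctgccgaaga
Rpl5: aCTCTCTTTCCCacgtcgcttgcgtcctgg
Fau: ggacgtgcgcgcccccgCTCCTTCCTCTTT
Rplp0: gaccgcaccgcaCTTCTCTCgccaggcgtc
Rpl13: ctttgcggtgcccgaTCCTTTCCgctcggc
Rps3a: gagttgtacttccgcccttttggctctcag
Rpl26: ctcgtgtcaacttacagaaccggaagtcgc
Rps12: gcacagaagcccagcagagcgcttaaatac
Rpl11: ggggacttgaagcttgtttggtgctgggga
Rps6: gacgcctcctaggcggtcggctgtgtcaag
In GRCr8 the Rpl35 window is chr3:43165907-43165936 on the minus strand, the Rpl4 window is chr8:73566462-73566491 on the plus strand, and the Rps6 window is chr5:106420526-106420555 on the minus strand. The Rpl35 run had 18 bases and the Rpl4 run 14, while the annotated starts of Rpl11 and Rps6 had no run of that length.

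Pyrimidine runs were common among the matched genes. A run of at least 8 bases was present at 37 of 56 ribosomal protein starts (66.1%), against 15.5% of all 27457 promoters in the table. The median longest run was 10 bases for the ribosomal protein genes and 5 bases for all promoters. A C followed by 4 pyrimidines at the annotated first base was found for 18 of the 56 (32.1%) and for 2.63% of all promoters. By both measures the share was higher at ribosomal protein starts than in the whole table. The letters CCGGAAG, the core of sites bound by ETS factors, were present on either strand of the 300-base promoter in 17 of 56 (30.4%) and in 9.22% of all. The letters AAGATGGC, which YY1 is known to bind and which can share the bases AAG with the first motif, were in 4 of 56 (7.14%) and in 3.44% of all. The letters TATAAA of the TATA box were in 7 of 56 (12.5%) and in 14.3% of all. The 250 bases before the start show CCGGAAG, in capitals, once each for Rpl35, at chr3:43165922-43166171 on the minus strand, and for Rps6, at chr5:106420541-106420790 on the minus strand.
Rpl35: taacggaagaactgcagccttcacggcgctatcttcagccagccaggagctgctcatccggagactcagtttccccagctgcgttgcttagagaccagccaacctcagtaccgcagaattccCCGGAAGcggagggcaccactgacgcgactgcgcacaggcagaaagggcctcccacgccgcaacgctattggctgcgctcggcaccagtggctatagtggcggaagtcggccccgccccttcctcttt
Rps6: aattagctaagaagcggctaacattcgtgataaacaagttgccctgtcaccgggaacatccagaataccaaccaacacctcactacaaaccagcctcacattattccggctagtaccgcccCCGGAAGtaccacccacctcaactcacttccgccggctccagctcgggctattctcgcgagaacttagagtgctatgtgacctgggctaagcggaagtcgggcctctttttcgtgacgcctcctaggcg
These matches describe letters in the reference and say nothing of what bound there in these cells.

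The ribosomal protein genes had high levels. Their median of mean FPKM was 290.3, against 10.01 FPKM for all 13450 genes tested. The median coefficient of variation over the 6 libraries was 23.0%, against 28.3% for all genes tested. Their median length in the authors' values was 652 nt, against 2054 nt. Of the 84 genes, 23 had a mean of at least 500 FPKM, 63 of at least 100 FPKM and 8 of under 10 FPKM. The large subunit genes had a median of 301 FPKM, the small subunit genes 402 FPKM and the 11 others 49.8 FPKM.

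**Figure D1:**
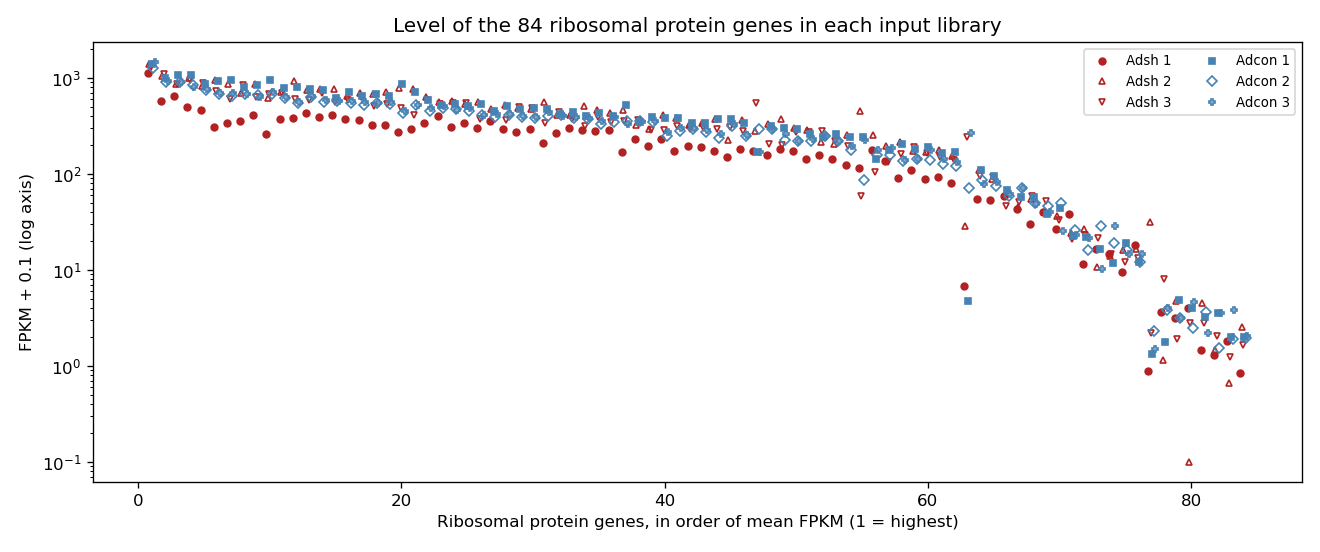
FPKM (+ 0.1, log axis) of the 84 ribosomal protein genes in each of the 6 input libraries, ordered by mean FPKM, with Adsh libraries in red and Adcon libraries in blue. Most genes sit between 100 and 1000 FPKM, and the filled red circles of Adsh library 1 lie lowest in 68 of the 84 genes.

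The highest gene was Rpl35, a protein beside the exit tunnel of the large subunit, which ranked 44 among all genes. Rpl35 had 1121, 1376 and 1294 FPKM in Adsh libraries 1 to 3, against 1389, 1278 and 1446 FPKM in Adcon libraries 1 to 3. Its groups overlapped, and Adsh library 1 was the lowest. Rplp0, which anchors the stalk that recruits elongation factors, had 578, 1042 and 1103 FPKM in the Adsh libraries and 1005, 895 and 930.4 FPKM in the Adcon libraries. Adsh library 1 stood well below the other 5, and Adsh libraries 2 and 3 stood above all Adcon libraries. Rpl41, a very short basic peptide, had 653, 861 and 866 FPKM in the Adsh libraries against 1066, 898 and 900.3 FPKM in the Adcon libraries. All Adsh libraries were below all Adcon libraries for Rpl41. Other high genes were Rps15 of the decoding site with a mean of 756 FPKM, Rps20 of the small subunit head with 711 FPKM, Rpl23a, where signal recognition particle docks, with 683 FPKM, and Rpsa of the small subunit with 676 FPKM. Rpl35 was above Rplp0 in every library. From Rplp0 downward, neighbours among these named genes differed by less than the SD of either over the 6 libraries.

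Some proteins that every ribosome needs were low or missing by name. Of the 78 symbols of both subunits that were listed, 68 were among the 84 genes (40 of 46 large, 28 of 32 small). Rpl35a and Rpl39 were listed at 0 in all 6 libraries, and Rpl8, Rpl9, Rpl38 and Rps29 averaged between 0.460 and 0.848 FPKM. Rpl37, Rps7, Rps13 and Rps26 had no row under that name. Rplp2, a stalk protein, averaged 6.50 FPKM where its partner Rplp1 averaged 367 FPKM. Ribosomal protein genes have many near-identical copies, and the sources used here do not say how fragments that match several copies were counted. The level of one named copy, the 9 genes that share 4 symbols (Rpl21, Rpl32, Rps27a and Rpl7a) among them, is therefore uncertain.

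The input libraries held 6417941, 7106004 and 7468528 fragments in Adsh libraries 1 to 3. Adcon libraries 1 to 3 held 12065991, 8171176 and 8623541. These totals were recovered from the steps of the FPKM values. The divisors behind those values were 7319521, 8165892 and 6897608 for Adsh libraries 1 to 3. For Adcon libraries 1 to 3 they were 11504349, 7814625 and 8291271. They differ from the totals, and how they were set was not tested. Nat10 itself, which checks the labels, had 4.38, 3.68 and 4.58 FPKM in the Adsh libraries against 7.69, 9.22 and 9.95 FPKM in the Adcon libraries (4.21 ± 0.470 and 8.96 ± 1.15, SD, n = 3 each). The groups did not overlap, and the log2 change was -0.93 (SE 0.187), with an adjusted p of 0.227 in limma over all genes. Adcon libraries 2 and 3 were much closer to each other than any other pair of a group, with a chi-square per gene of 6.30 over 12094 genes against 46.1 to 125 in the other 5 pairs, and they still differed by more than sampling noise. The 8 smooth muscle markers, Acta2, Myh11 and Tagln among them, summed to 1311, 682 and 3295 FPKM in the Adsh libraries and to 5737, 4190 and 4419 FPKM in the Adcon libraries, with Des near 0 (0.207 FPKM). Of the 5 endothelial markers 4 were under 1 FPKM on average, and Eng made up nearly all of their sums of 48.2 to 103 FPKM. Of the 6 leukocyte markers 4 were under 1 FPKM, with sums of 6.47 to 25.7 FPKM. All 6 adventitial fibroblast markers were above 1 FPKM, with sums of 193 to 264 FPKM in the Adsh libraries and 295 to 318 FPKM in the Adcon libraries. Of the 5 Schwann and neural markers 3 were under 1 FPKM, with sums of 59.3 to 126 FPKM, and the 2 red cell markers measured summed to 0.770 to 2.03 FPKM with Hbb at 0. Whether these differences between libraries have a part in the ribosomal protein values was not tested.

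The ribosomal protein genes deviated together from library to library, and Adsh library 1 stood apart. The median of their deviations from their own 6-library mean, on the log2(FPKM + 1) scale, was -0.57, 0.25 and 0.06 in Adsh libraries 1 to 3 and 0.26, -0.01 and 0.03 in Adcon libraries 1 to 3. Over all 13450 genes the same medians lay between -0.0090 and 0.0053. Medians over all genes can be held near 0 by how the libraries were scaled, and this was not tested. Over the 572 other genes with a mean of at least 100 FPKM, they were -0.13, -0.24 and 0.19 in the Adsh libraries and 0.05, 0.08 and 0.08 in the Adcon libraries. Over the 2922 other genes of at most 1000 nt, they lay between -0.08 and 0.04 in all 6. Adsh library 1 held the lowest of the 6 values in 68 of the 84 genes, against 19.8% of all genes tested, and in 58 of the 63 with a mean of at least 100 FPKM. The highest value was in Adsh library 2 for 37 genes and in Adsh library 3 for 14, against 26.3% and 17.5% of all genes tested, and in Adcon library 1 for 22, against 15.3% of all.

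**Figure D2:**
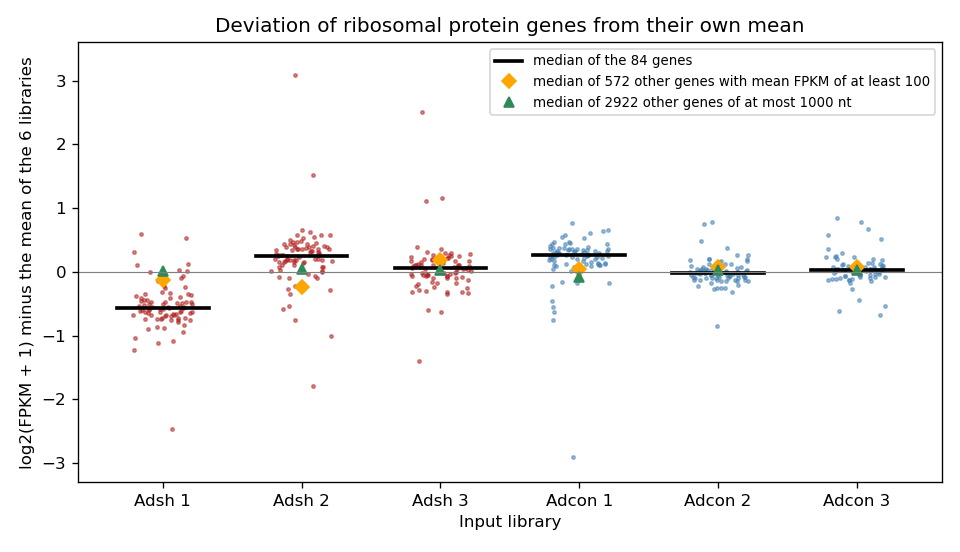
Deviation of each ribosomal protein gene from its own mean over the 6 input libraries, in log2(FPKM + 1), with 1 point per gene, Adsh in red and Adcon in blue. Black bars are the medians of the 84 genes, which are lowest in Adsh library 1 at -0.57 and highest in Adcon library 1 at 0.26, while the medians of the 2922 other short genes (triangles) stay near 0.

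Summed over the 84 genes, ribosomal protein messages made up 3.69%, 6.50% and 4.59% of all FPKM in Adsh libraries 1 to 3, against 5.89%, 4.93% and 5.19% in Adcon libraries 1 to 3. The means were 4.92% ± 1.43 in Adsh and 5.33% ± 0.497 in Adcon (SD, n = 3 each), a difference of -0.409 percentage points. The groups overlapped, and the Adsh libraries were both the lowest and the highest of the 6. As a share of fragments, the means were 2.09% ± 0.649 in Adsh and 2.08% ± 0.230 in Adcon. In bulk RNA such as this, fewer cells of a type and less RNA per cell cannot be told apart.

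On knockdown of Nat10, no ribosomal protein gene passed the test. In limma over all 13450 genes, 0.0% of genes had an adjusted p of at most 0.05, and none of the 84 did. At an unadjusted p under 0.05, Rpl11 alone of the 84 was lower in Adsh, against 6.95% of all genes tested, and 0 were higher, against 5.53% of all. The signs leaned one way: 75 of the 84 log2 changes were negative, against 51.4% of all genes, with a median of -0.17 against -0.01. That lean rested on Adsh library 1, since without it 28 of the 84 were negative, against 51.2% of all genes, and the median was 0.08. Without Adcon library 1, 59 of the 84 were negative, against 50.8% of all genes, with a median of -0.08. After quantile normalization 55 of the 84 were negative, against 49.2% of all genes, with a median of -0.06. Other settings gave more negative values. With library quality weights 78 of the 84 were negative, against 51.2% of all genes, with a median of -0.34. At an unadjusted p under 0.05 in limma, 9 of the 84 were then lower, against 1910 of all 13450 genes. Those weights were 1.35, 0.235 and 0.416 for Adsh libraries 1 to 3, so Adsh library 1 counted most in its group. Without Adsh library 2, 78 of the 84 were negative, against 51.6% of all genes, with a median of -0.33. At an unadjusted p under 0.05, 6 of the 84 were then lower, against 1129 of all 13450 genes. In 5 genes all Adsh libraries were below all Adcon libraries (Rpl41, Rpl6, Rpl10, Rpl11 and Rpl10l), against 10.9% of all genes, and in 0 they were all above, against 9.63% of all.

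**Figure D3:**
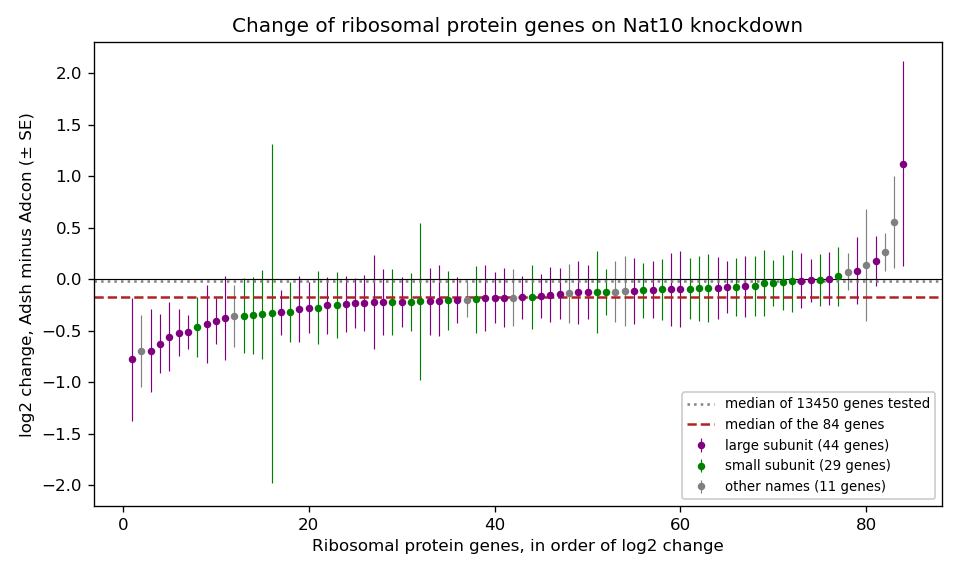
Log2 change in FPKM + 1, Adsh minus Adcon, with its SE from limma, for the 84 ribosomal protein genes in order of change (n = 3 libraries each). The dashed line is their median of -0.17 and the dotted line that of all 13450 genes at -0.01, and none of the changes passed the test.

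The largest negative log2 changes of abundant large subunit genes were those of Rpl13, Rpl6 and Rpl10. Rpl13 had 259, 609 and 682 FPKM in the Adsh libraries against 941, 675 and 715 FPKM in the Adcon libraries. Adsh library 1 was far below the rest and Adcon library 1 above them, and the groups overlapped. Its log2 change was -0.69 (SE 0.402), with an adjusted p of 0.515 in limma. Rpl6 had 151, 224 and 308 FPKM in the Adsh libraries against 369.6, 311 and 333 FPKM in the Adcon libraries. The groups did not overlap, though Adsh library 3 came within 3 FPKM of Adcon library 2, and the adjusted p in limma was 0.425 for a log2 change of -0.62 (SE 0.284). Rpl10, which joins the large subunit late, in the cytoplasm, had 196, 290.4 and 289 FPKM in the Adsh libraries against 394, 342 and 358 FPKM in the Adcon libraries. All Adsh libraries were lower, with a log2 change of -0.52 (SE 0.226) and an adjusted p of 0.413 in limma.

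Rpl5 and Rpl11 bind 5S ribosomal RNA and, when free of ribosomes, the p53 ligase MDM2. Rpl11 had 43.3, 44.9 and 50.3 FPKM in the Adsh libraries against 56.8, 71.7 and 70.7 FPKM in the Adcon libraries (46.2 ± 3.64 and 66.4 ± 8.33, SD, n = 3 each). All Adsh libraries lay below all Adcon libraries, and Adsh library 1 did not stand apart from the other Adsh libraries. In limma its log2 change of -0.51 (SE 0.166) had a p of 0.0179 before adjustment and 0.325 after Benjamini-Hochberg adjustment. Rpl5 had 407, 854 and 635 FPKM in the Adsh libraries against 835, 654 and 627 FPKM in the Adcon libraries. Adsh library 1 was lowest and Adsh library 2 highest, so the groups overlapped, and the log2 change was -0.21 (SE 0.325), with an adjusted p of 0.818 in limma. It was 0.073 without Adsh library 1.

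Among the stalk proteins, Rplp0 had a log2 change of -0.11 (SE 0.318), which was 0.19 without Adsh library 1 and 0.13 after quantile normalization. Rplp1 had 169, 467 and 357 FPKM in the Adsh libraries against 527, 355 and 329 FPKM in the Adcon libraries, with overlapping groups and a log2 change of -0.37 (SE 0.405), or 0.050 without Adsh library 1. Rplp2 had 0.785, 31.3 and 2.08 FPKM in the Adsh libraries against 1.25, 2.21 and 1.39 FPKM in the Adcon libraries. Adsh library 2 alone was high, the groups overlapped, and the log2 change of 1.12 (SE 0.994) was -0.14 without that library.

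Of the 29 small subunit genes, 28 were on the negative side (median log2 change -0.12), as were 40 of the 44 large subunit genes (median -0.19). Fau encodes a ubiquitin-like protein fused to RPS30. Fau had 156, 333 and 203 FPKM in the Adsh libraries against 317, 295 and 295 FPKM in the Adcon libraries. The groups overlapped through Adsh library 2, and the log2 change was -0.46 (SE 0.293), with an adjusted p of 0.556 in limma. The Rps27a gene ENSRNOG00000004426, a fusion of ubiquitin with a ribosomal protein, had 374, 649.7 and 587 FPKM in the Adsh libraries against 719, 543 and 577 FPKM in the Adcon libraries. Its groups overlapped, with a log2 change of -0.22 (SE 0.284), or 0.021 without Adsh library 1. Among the abundant genes of the small subunit and of the tunnel, the log2 change was -0.34 for Rps20, -0.27 for Rpsa, -0.17 for Rps15 and -0.43 for Rpl23a, with adjusted p-values of 0.671 to 0.846 in limma. Without Adsh library 1 it was positive for 3 of these 4 genes, at 0.13 for Rps20, 0.092 for Rpsa and 0.12 for Rps15.

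Rps6, the ribosomal target of S6 kinase, varied far more than its neighbours and in the same way in both groups. Rps6 had 6.66, 28.3 and 240.1 FPKM in Adsh libraries 1 to 3 against 4.68, 70.4 and 264 FPKM in Adcon libraries 1 to 3. Library 1 was lowest and library 3 highest in each group, and the largest value was 56.4 times the smallest. The groups overlapped, with a log2 change of -0.33 (SE 1.65), which lay between -1.86 and 0.91 with 1 library left out. Rps19, a protein of the small subunit head, and its copy Rps19l2 also varied. Rps19 had 114, 448 and 58.0 FPKM in the Adsh libraries against 244, 86.0 and 222 FPKM in the Adcon libraries, and Rps19l2 had 173, 280.1 and 551 FPKM in the Adsh libraries against 167, 294 and 169 FPKM in the Adcon libraries. In the library where Rps19 was lowest in each group, Rps19l2 was highest. The sum of the pair was 287, 729 and 609 FPKM in the Adsh libraries and 411, 380.2 and 392 FPKM in the Adcon libraries, with the largest 2.54 times the smallest. That range was 7.73 for Rps19 alone and 3.31 for Rps19l2 alone.

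**Figure D4:**
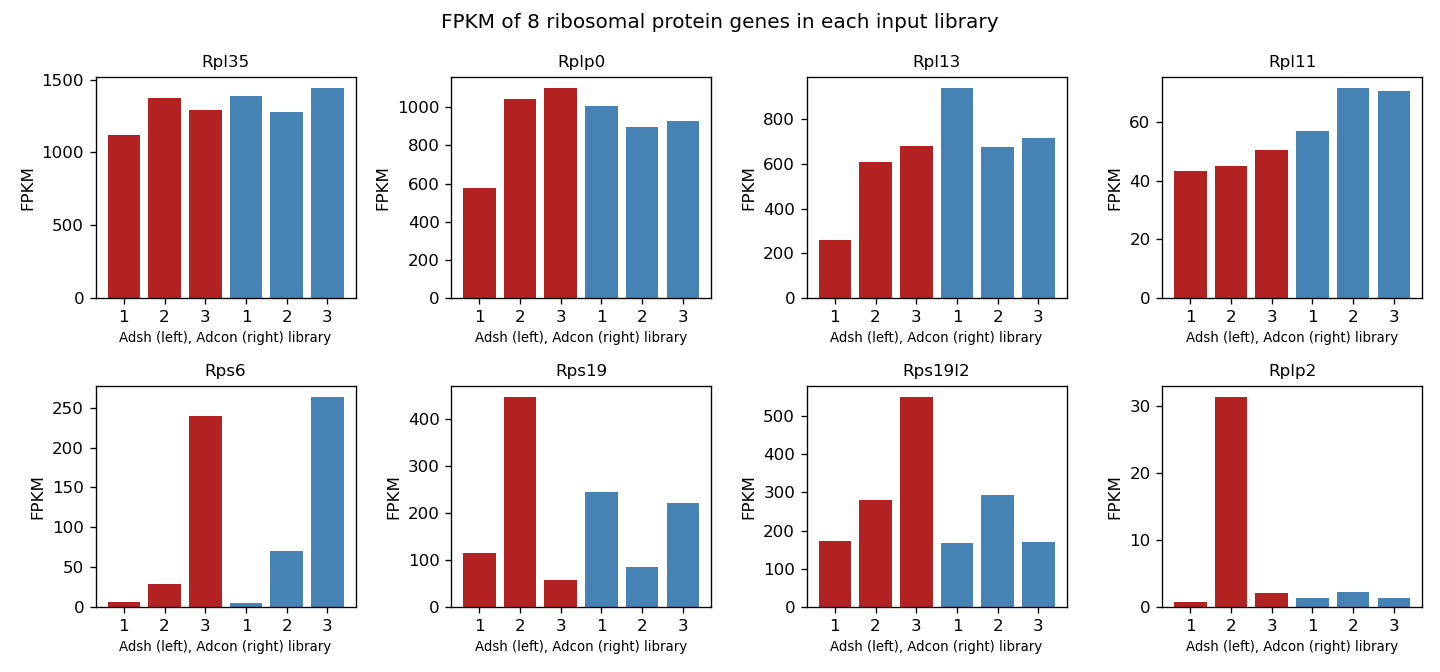
FPKM of 8 ribosomal protein genes in each input library, as bars from 0, with Adsh libraries 1 to 3 in red on the left and Adcon libraries 1 to 3 in blue on the right of each panel. Rpl11 is lower in all Adsh libraries, Rpl13 and Rplp0 are low in Adsh library 1, Rps6 is high in library 3 of both groups, and Rplp2 is high in Adsh library 2 alone.

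The paralogues had log2 changes of both signs, and none passed the test. Rpl22l1 had 14.6, 13.8 and 14.5 FPKM in the Adsh libraries against 11.6, 19.0 and 28.6 FPKM in the Adcon libraries. The groups overlapped through Adcon library 1, and the log2 change was -0.35 (SE 0.302). The log2 change was -0.20 (SE 0.170) for Rps27l, known in human cells as a p53 target, -0.14 (SE 0.290) for Rpl36al, which was 0.14 without Adsh library 1, and 0.08 (SE 0.178) for Rpl7l1. Rpl10l, a paralogue known from the mouse testis, had 1.70, 0.572 and 1.13 FPKM in the Adsh libraries against 1.90, 1.79 and 3.76 FPKM in the Adcon libraries, a log2 change of -0.70 (SE 0.351). All its libraries were near the level filter, and the groups did not overlap. Rpl3l and Rpl39l were below the level, at 0.134 and 0.0403 FPKM on average.

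Low copies of common names gave other extremes. The Rpl21 gene ENSRNOG00000029410 had the largest negative log2 change, -0.78 (SE 0.598), at 3.96, 0 and 2.70 FPKM in the Adsh libraries and 3.96, 2.38 and 4.49 FPKM in the Adcon libraries. The Rpl32 gene ENSRNOG00000032605 had a log2 change of -0.55 (SE 0.332), while the abundant Rpl32 gene ENSRNOG00000010746, with means of 469 FPKM in Adsh and 484 FPKM in Adcon, had one of -0.07 (SE 0.254), or 0.15 without Adsh library 1.

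Besides Rplp2, Rpl7l1 and Rps10, the positive log2 changes named by size were 0.56 for Rps19l2 (SE 0.447), 0.27 for Rps19bp1 (SE 0.182), 0.18 for Rpl30 (SE 0.241), 0.14 for Rps4y2 (SE 0.544) and 0.09 for the Rpl21 gene ENSRNOG00000000957 (SE 0.326). Rps10 had a log2 change of 0.03. Rps19bp1 had 17.99, 16.3 and 13.2 FPKM in the Adsh libraries against 12.04, 12.1 and 14.7 FPKM in the Adcon libraries. Its groups overlapped in 1 library each, and the adjusted p in limma was 0.586.

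Related genes of translation were set beside them. None of the genes in the lists that follow passed the limma test. A list of 18 other genes known for TOP messages held elongation and initiation factors and also genes of other roles. Of the 18, 11 were on the negative side (median log2 change -0.08), and their median deviation in Adsh library 1 was -0.37. The most negative were those of no translation factor: -0.74 (SE 0.474) for Vim, an intermediate filament protein, and -0.57 (SE 0.181) for Hnrnpa1, an RNA-binding protein of splicing, both named after their values were seen. Another gene of that list, Eef1a1, which brings aminoacyl-tRNA to the ribosome, had 896, 2101 and 2255 FPKM in the Adsh libraries against 2593, 1882 and 1849.9 FPKM in the Adcon libraries. As for Rplp0, Adsh library 1 was far below the rest. Of 22 genes for initiation factors and for the proteins that bind and inhibit eIF4E, 7 were on the negative side (median 0.09), as were 37 of 71 mitochondrial ribosomal proteins (median -0.0037). The median deviations of these lists in Adsh library 1 were -0.11 and -0.02. The inhibitors Eif4ebp1 and Eif4ebp2 had log2 changes of -0.27 (SE 0.234) and 0.56 (SE 0.278), and that of Eif4ebp2 was the largest positive one of its list. Of 9 regulators of these messages, among them Larp1, which binds the TOP motif, 5 were negative, with a median of -0.08. Of 13 chaperones and partners in ribosome assembly, Nat10 included, 5 were negative, with a median of 0.08.

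The 5 other genes whose log2(FPKM + 1) followed the mean of the 84 most closely over the 6 libraries were Srgap2 (Pearson r 0.994), AABR07052430.1 (0.994), App (0.992), the initiation factor Eif1 (0.992) and AABR07071891.2 (0.991). App had 154, 279.5 and 258 FPKM in the Adsh libraries against 292, 247 and 251 FPKM in the Adcon libraries, with Adsh library 1 lowest. Of 6656 other genes with a mean of at least 10 FPKM, 162 reached an r of 0.9. Of the 84 themselves, 46 reached it and 17 were under 0.5. Each of the 84 is part of that mean, so their count cannot be set against that of the other genes. These values share the libraries and their scaling, and the low Adsh library 1 weighs on each of them.

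Nearly all ribosomal protein genes held an ac4C peak in at least 1 library's list. Among the 84, 80 had a peak in 1 or more of the 6 lists, against 68.4% of genes tested and 75.5% of the 572 other genes with a mean of at least 100 FPKM. In Adcon lists 1 and 2, 89.6% and 93.5% of peaks shared a single p-value (0.045 and 0.046). Without those peaks 77 of the 84 (91.7%) had a peak, against 47.6% of genes tested and 74.5% of the other high genes. The authors deposited 1 list per library with a p-value and no enrichment per peak, so heights cannot be compared between groups.

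The number of genes with a peak varied as much within groups as between them. A peak was present in 37, 21 and 61 ribosomal protein genes in Adsh lists 1 to 3, against 47, 33 and 40 in Adcon lists 1 to 3. Those counts include the peaks at the shared p-value. Without these peaks the Adcon counts were 43, 24 and 40, and the Adsh counts were as before. As shares, they were 44.05%, 25.0% and 72.6% in Adsh and 51.2%, 28.6% and 47.6% in Adcon, against 18.6%, 15.4% and 16.0% of genes tested in the Adsh lists and 18.7%, 12.2% and 20.4% in the Adcon lists (41.2% and 40.2% in Adcon lists 1 and 2 with the shared p-value). Adsh list 3 was the highest and Adsh list 2 the lowest, and the groups overlapped. Adsh list 3 was also the highest for the other high genes, at 57.2% against 33.2% to 43.9% in the other 5. Of 21 ribosomal protein genes with a peak in 1 list only, counted without the peaks at a shared p-value, 14 had it in Adsh list 3. That share was not taken over other genes, so it cannot be called particular to the ribosomal protein genes. Without the peaks at a shared p-value, more Adsh than Adcon lists held a peak for 32 genes (38.1%), against 18.4% of genes tested and 27.3% of the other high genes. More Adcon than Adsh lists held one for 19 (22.6%), against 18.8% of genes tested and 20.8% of the other high genes, and 26 genes had a peak in as many lists of each group. The peaks at a shared p-value lie only in Adcon lists 1 and 2, so leaving them out acts on 1 group. With them, more Adsh lists held a peak for 31 genes (36.9%), against 13.5% of genes tested and 26.2% of the other high genes. More Adcon lists then held one for 24 (28.6%), against 44.3% and 23.1%.

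**Figure D5:**
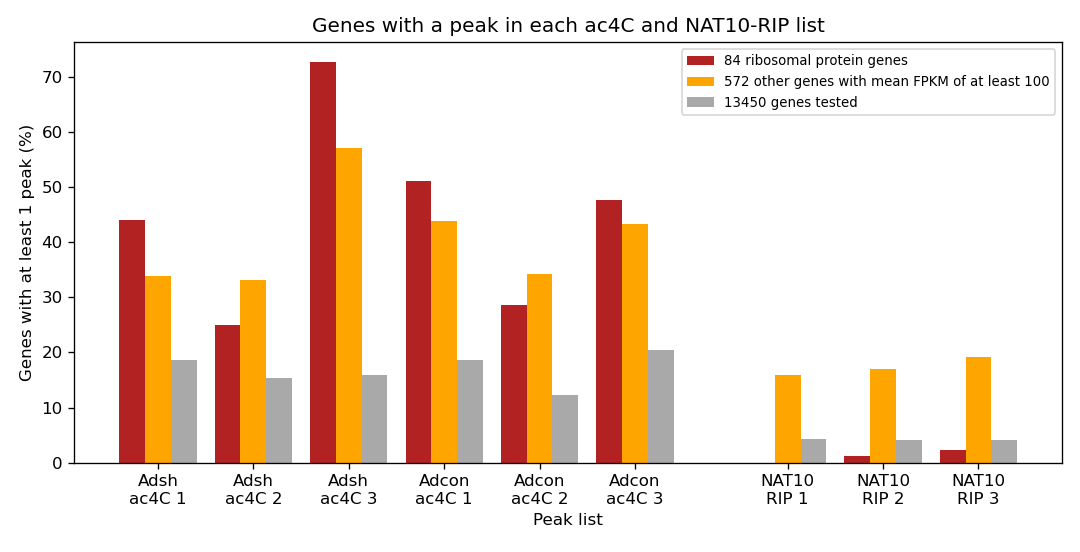
Share of genes with at least 1 peak in each ac4C list (Adsh left of Adcon; without the peaks at a shared p-value) and in each NAT10-RIP list, for the 84 ribosomal protein genes, the 572 other genes with a mean of at least 100 FPKM and all 13450 genes tested. Ribosomal protein genes run from 25.0% to 72.6% in the ac4C lists and from 0 to 2.38% in the NAT10-RIP lists.

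In all 6 ac4C lists a peak was present for 7 of the 84 genes (8.33%), against 2.39% of genes tested and 13.3% of the other high genes. Without the peaks at a shared p-value it was again 7, against 2.09% and 13.1%. The 7 were Rpl35, Rpl4, Rpl26, Rpl13a, Rps3a, Rps12 and the Rps27a gene ENSRNOG00000034246, and the first 6 are among the windows printed above. The build of the peak positions is not stated; rn6 is the only rat build in the submitters' processing notes. The Rpl35 peaks of all lists shared 179 bases at chr3:23294814-23294992 on the minus strand. The Rpl4 peaks shared 178 bases at chr8:69126628-69126805 on the plus strand, and their far end, 69126805, was the same in every list. The Rps3a peaks shared 150 bases between 185440588 and 185441084 on chromosome 2, and those of Rps12 shared 144 bases between 22759821 and 22760370 on chromosome 1.

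No ribosomal protein gene had a peak in all 3 Adsh lists and no Adcon list, against 0.201% of genes tested and 0.175% of the other high genes. In the other direction, 2 had a peak in all 3 Adcon lists and no Adsh list, against 1.81% of genes tested and 1.4% of the other high genes. Without the peaks at a shared p-value these counts were again 0, against 0.297% of genes tested and 0.35% of the other high genes, and 2, against 0.491% and 1.4%. One was Fau, whose Adcon peaks were at chr1:221420300-221420655, chr1:221421449-221421813 and chr1:221421477-221421813 on the plus strand, so that the first shared no base with the other two. The other was the Rpl21 gene ENSRNOG00000032803, at a mean of 1.74 FPKM. Over both groups, 40 genes (47.6%) had a peak in at least 3 lists, against 13.8% of genes tested and 45.3% of the other high genes, and in 26 of the 40 the peaks of all their lists shared bases. The 243 peaks in ribosomal protein genes, without those at a shared p-value, covered a median of 210 bases (110 to 774).

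Rps6 and Rpl11 had peaks at different places in different lists. Rps6 had peaks in lists 1 and 2 of both groups and none in list 3, where its FPKM was highest. On the minus strand of chromosome 5, the Adsh peaks ran over 105209876-105211500 and 105209966-105211500, against 105211650-105212173 and 105211680-105212173 in Adcon, upstream of them in the direction of transcription and with no base in common. Adcon list 1 also had a weaker Rps6 peak at 105209846-105210026 (p 0.0023), which shared bases with both Adsh peaks. Without the peaks at a shared p-value, Rpl11 had peaks in all 3 Adsh lists and in Adcon list 1. The Adcon peak of Rpl11, at chr5:154393552-154393731 on the minus strand, overlapped none of its 6 Adsh peaks, which lay between 154388796 and 154392258. Within Adsh, the Rpl11 peaks of list 2 likewise shared no base with those of lists 1 and 3. Both differences between the groups were noticed after the positions were seen and were not tested. Among other genes named above, Rpl5 had a peak in 3 Adsh and 2 Adcon lists, Rplp1 in 2 Adsh and 2 Adcon lists, Rplp2 in 2 Adsh lists and 1 Adcon list, and Rplp0 in Adsh list 3 only.

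NAT10-RIP peaks were few in the ribosomal protein genes and in all genes tested. There were 0, 1 and 2 of the 84 in RIP lists 1 to 3, and 3 in any list (3.57%), against 5.93% of genes tested and 21.7% of the other high genes. None had a peak in at least 2 lists, against 3.88% of genes tested and 17.3% of the other high genes. The first of the 3 was Rpl5, with a peak of 50 bases at chr14:2864029-2864078 in list 2, at the authors' log2 enrichment of 0.89 and p of 2.31e-80. That peak overlapped ac4C peaks of 4 lists. Rpl35 had a peak in list 3 within chr3:23294914-23297409, at a log2 enrichment of 1.01, which overlapped the ac4C peaks of all 6 lists. Rpl23, of the large subunit, had one in list 3 within chr10:85721708-85724399, at a log2 enrichment of 0.73, which overlapped ac4C peaks of 2 lists. All 3 genes lie on the minus strand.

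Gene length moved with the presence of a RIP peak. Genes tested with a peak in at least 2 RIP lists had a median length of 4980 nt, against 652 nt for the ribosomal protein genes. Among other genes tested, 0.411% of the 2922 of at most 1000 nt had a RIP peak and 7.50% of the 10444 longer ones did. Of the 62 ribosomal protein genes of at most 1000 nt, 2 had one (3.23%). The other genes of at most 1000 nt had a median of 5.59 FPKM, against 290.3 FPKM for the 84, so the 2 sets differ in level. The part of length and of level in the RIP share of ribosomal protein genes was not tested further. The RIP cells carried no virus, and the sources used here do not name the control behind the RIP enrichment.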

How the data were processed

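Input RNA, ac4C-bound RNA and NAT10-bound RNA were sequenced by the submitters, whose processing notes name HISAT2 2.1.0, HOMER 4.10.4, DESeq2, cutadapt 2.5 and featureCounts 1.6.3, without their roles. Those notes also list the builds GRCm38, GRCh38 and rn6. The authors deposited input expression as FPKM per Ensembl gene, 1 column per library. Each ac4C list was deposited by the authors with a p-value per peak, not said to be raw or adjusted. Per the file headers, each NAT10-RIP list gives log2 enrichments with p-values. The sources used here do not give the peak callers or the counting of fragments that match several genes.

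The fragments behind each FPKM were recovered from its steps (whole for 21401 of 21401 genes above 0, relative tolerance 2e-08, absolute tolerance 1e-06). They entered only lengths, depths, divisors, a comparison of library pairs and a voom fit. The main test used limma 3.58.1 (R 4.3.3) for the 13450 genes at a mean FPKM of 1 or more, as log2(FPKM + 1), a scale that understates changes at low levels. The model had only the group and a mean-variance trend. Tests were two-sided, adjusted by Benjamini-Hochberg, with a threshold of 0.05. The fit was also run on simulated data with independent noise for each gene. That run does not cover deviations that many genes share in a library, as seen here. Peaks were assigned by the gene IDs in the lists, with 1 added to each start, and no position was moved between builds. Pyrimidine runs and motifs were searched in RefSeq promoters of GRCr8, which hold 250 bases before the start and 50 after, matched by symbol.

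The ribosomal protein genes and all lists were chosen with earlier results of these data known. Named were Nat10, the 8 highest genes, the 8 largest changes in each direction, Rpl5, Rpl11, the stalk proteins, the ubiquitin fusions, paralogues, Rps19bp1, genes with peaks in the most lists and the 5 most alike other genes; some genes that the rule names are not reported here. Rps6, Rps19, Eef1a1 and Rpl32 ENSRNOG00000010746 were added after their values were seen. Groups and library numbers came from the sample titles. The same number in both groups marks no shared source in the labels.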

Additional observations from a re-analysis of the deposited data

How the results depend on the processing

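Under every other setting run, no ribosomal protein gene was called in either direction (pseudocount 0.1, no filter or a mean of at least 5 FPKM, rescaling to equal totals, quantile normalization, quality weights, no trend, Adcon libraries 2 and 3 averaged, each library left out, and voom added after seeing the data). With library quality weights 120 genes of all were called higher and 215 lower, with Nat10 among those lower (adjusted p 0.0399 in limma). The lowest adjusted p among the 84 was then 0.0531. The weights of Adcon libraries 2 and 3, the close pair, were 3.80 and 3.57, against 0.235 to 1.35 for the rest. With that pair averaged, 0 genes of all were called in either direction. Leaving out 1 input library gave 0 to 1 genes called higher and 0 to 1 called lower. Correlations of the deviations of same-numbered libraries were -0.211, -0.284 and 0.179, against -0.293 to 0.414 for libraries of unlike number. The deviations are taken from each group's own mean and depend on each other, so they cannot decide whether a number marks a shared source. With the replicate number as a block 0 genes were called of all and 0 of the 84.

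The log2 changes of 18 named genes changed sign under at least 1 setting, and none was called. Rps10 was -0.045 with quality weights and -0.065 with Adcon libraries 2 and 3 averaged, and Rpl7l1 was -0.022 with quality weights. After quantile normalization, Rpl35 was 0.22, Rplp0 0.13, Rps15 0.012 and Rpl32 (ENSRNOG00000010746) 1.6e-05. Rps6 was 0.29 with Adcon libraries 2 and 3 averaged. With 1 input library left out, the range was -0.20 to 0.22 for Rps10, -0.055 to 0.15 for Rpl7l1, -0.22 to 0.42 for Rpl21 (ENSRNOG00000000957), -0.37 to 0.69 for Rps4y2, -0.072 to 0.35 for Rpl30 and -0.14 to 1.95 for Rplp2. Among genes with negative values it was -0.28 to 0.19 for Rplp0, -0.35 to 0.12 for Rps15, -0.67 to 0.13 for Rps20, -0.52 to 0.092 for Rpsa, -0.46 to 0.073 for Rpl5, -0.68 to 0.050 for Rplp1, -0.38 to 0.021 for Rps27a (ENSRNOG00000004426), -0.37 to 0.14 for Rpl36al, -1.86 to 0.91 for Rps6, -1.03 to 0.43 for Rps19 and -0.19 to 0.15 for Rpl32 (ENSRNOG00000010746). Of these 11, all but Rps19 were positive without Adsh library 1. The causes were not tested.

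Leaving out 1 ac4C list gave 7 to 12 ribosomal protein genes in every list left. It gave 2 to 7 in all Adcon and no Adsh list, and 0 to 4 in all Adsh and no Adcon list. Such counts can only stay or rise when a list is dropped, for any set of genes. They are not given for other genes, so they cannot be called particular to the ribosomal protein genes. At a log2 enrichment of at least 2, 0 ribosomal protein genes had a NAT10-RIP peak. That compares with 0.520% of genes tested and 1.05% of the other high genes. Without that limit, leaving out 1 RIP list gave 1 to 3 ribosomal protein genes, with no such count given for other genes. Assigning peaks by position was not run, since the lists carry gene IDs. The depth of 6417941 to 12065991 fragments and the 3 libraries a group limit what the tests can show.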
